A study of Rattus norvegicus with 4 samples.

Results

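The Bcl2 family of survival and death genes was followed in cultured rat granulosa cells after an siRNA against Runx2. The genes were Bcl2, Bcl2l1 and Mcl1, whose products protect cells, and Bcl2l11, Bid, Bbc3, Pmaip1, Bak1 and Bax, whose products promote death. Probe sets were taken where the array's probe table gives one of these symbols and no other. This found 13 probe sets for 7 of the 9 genes, out of 20826 probe sets with 1 symbol for 14217 genes. Bax shares its probe set with another symbol and Pmaip1 is paired with none, and both were not analysed here. Of the 13 probe sets, 10 lay above the filter on dim signals and were tested, and these stand for 6 genes.

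Bcl2 family proteins decide whether the outer mitochondrial membrane stays intact. Bak1 and Bax form the pores that release cytochrome c, Bcl2, Bcl2l1 and Mcl1 hold them in check, and the BH3-only proteins Bcl2l11 (Bim), Bid, Bbc3 (Puma) and Pmaip1 (Noxa) carry the death signal by binding either side. In the ovary, apoptosis of granulosa cells is the main route by which follicles are lost to atresia, and gonadotropins acting through cAMP are known to protect these cells.

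All cells came from the ovaries of immature female Sprague Dawley rats, 27 days old, primed for 48 h with PMSG, a gonadotropin that makes follicles grow. Every culture received forskolin at 10 µM for 48 h, which raises cAMP, and either Runx2 siRNA or a negative control siRNA at 20 nM. No array shows the cells without forskolin or without siRNA. Each group held 2 arrays, 1 per separate culture, and this number limits the precision of every value. The titles number the arrays 1 and 2 in each group and leave unsaid whether equal numbers came from one preparation of cells. The values are MAS5 signals, a probe set's brightness on a linear scale, so the signals of different probe sets are not comparable in level. The question was which transcripts depend on the Runx2 induced by an agonist. Runx2 itself has 0 probe sets in the probe table, the knockdown was therefore not analysed here, and the groups rest on their labels.

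The second Runx2 siRNA array stood apart. Its spike-in signal was 1.72 times the control mean against 0.924 to 1.08 on the other arrays, and its actin 3' to 5' signal ratio was 1.71 against 1.42 to 1.45. Granulosa markers fixed for the check had a probe set for 9 of 10 genes, all above the filter, with a summed signal of 69520 and 71084 with Runx2 siRNA and 68392 and 62866 with control siRNA. A few bright probe sets carry that sum, and the genes went both ways, 6 higher and 3 lower. The groups did not overlap in 7 of the 9, beside 47.4% of all probe sets tested. By limma 4 of the 9 had an unadjusted p under 0.05, beside 11.9% of all. Foxl2, a granulosa transcription factor, differed by 0.30 ± 0.10 (log2, SE) and Cyp19a1, the aromatase, by -1.34 ± 0.39, and 0 of the 9 passed after adjustment. The 6 leukocyte markers summed to 983 and 1515 with Runx2 siRNA and 765 and 1308 with control siRNA. Cd14 alone gave most of this, at 633 and 956 against 456 and 758. Of the leukocyte markers above the filter, 2 were higher and 1 lower. The 4 stromal markers summed to 545 and 925 against 434 and 739, the 5 oocyte markers to 584 and 893 against 398 and 628, and the 2 theca markers to 164 and 122 against 73.8 and 70.4. Zp2 alone gave most of the oocyte sum, at 486 and 571 against 323 and 498. The 4 endothelial markers with a probe set summed to between 249 and 329 on each array. Ptprc, the pan-leukocyte antigen, read 2.32 to 37.4, the endothelial Pecam1 11.2 to 34.7 and the theca enzyme Cyp17a1 16 to 91.7. Each of these lay below the filter on dim signals by its mean. Others passed it, namely 3 leukocyte, 1 endothelial, 4 stromal, 1 oocyte and 0 theca markers. The brightest by mean signal were Cd14 (701), Zp2 (469), Dcn (368), Lyz2 (224) and Kdr (189). On their own the dim values do not show whether cells of these types were present, and what the brighter ones reflect was not tested. The part of any such cells in a difference was not tested. In such bulk RNA, fewer cells of a type and less RNA per cell cannot be told apart.

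Mcl1 on the survival side and Bcl2l11 on the death side had probe sets that differed in sign with the authors' scaling. The 250 bases before their transcription starts are shown to place them in the genome. Both come from the RefSeq promoter table of GRCr8, with Mcl1 on the plus strand of chr2:185907918-185908167 and Bcl2l11 on the plus strand of chr3:135819792-135820041. Capitals mark the core of the cAMP response element, TGACG or its reverse complement CGTCA.
Mcl1: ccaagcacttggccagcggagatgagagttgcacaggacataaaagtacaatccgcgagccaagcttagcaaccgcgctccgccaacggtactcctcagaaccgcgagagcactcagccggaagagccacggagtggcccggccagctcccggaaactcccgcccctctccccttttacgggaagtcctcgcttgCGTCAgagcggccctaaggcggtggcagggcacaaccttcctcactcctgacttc
Bcl2l11: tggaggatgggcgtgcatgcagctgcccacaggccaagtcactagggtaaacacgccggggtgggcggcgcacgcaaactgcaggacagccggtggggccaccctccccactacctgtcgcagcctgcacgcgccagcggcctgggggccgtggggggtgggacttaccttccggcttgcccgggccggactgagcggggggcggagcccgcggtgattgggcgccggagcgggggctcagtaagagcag

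The table matched 6 of the 7 measured genes with 9 windows of 300 bases, from 250 before to 50 after a start (Bcl2l1 has several, of which 2 overlap), and Bbc3 was not matched. The Runx core letters TGTGGT and TGCGGT were searched on both strands. They were in 0 of the 9 windows, whereas 22.9% of all 33469 windows in the table hold either. TGACG was in 1 of the 9 windows, that of Mcl1 at position -55 from the start on the opposite strand, and in 21.2% of all windows. A match describes letters and is not a bound site, and a missing match says nothing about the factor.

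None of the 10 tested probe sets of the family passed the test, and none of all 18625 did (0% of probe sets called, limma, adjusted p under 0.05). The adjusted p of the 10 ran from 0.45 to 0.969. At an unadjusted p under 0.05 the count was 0 of 10 in the family, beside 11.9% of all probe sets. Differences are given as log2(signal + 16), Runx2 siRNA minus control siRNA. They ran from -0.37 to 0.41 with a median of 0.18, beside a median of 0.05 over all probe sets tested, and 8 were above 0 and 2 below. The 95% intervals reached from -0.81 to 1.00, so changes of up to 2-fold in some members fall within them.

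The arrays of the 2 groups did not overlap in 4 of the 10 probe sets, 3 higher and 1 lower with Runx2 siRNA. Over all probe sets 47.4% did not overlap, 28.8% higher and 18.5% lower, so the family's share was near the background. Between arrays of the same number, both differences were above 0 in 5 of the 10 probe sets (41.6% of all), both below 0 in 2 (28.3% of all) and opposite in 3. The difference between the groups was larger than the difference between the arrays of either group in 1 of the 10, a Bcl2l1 probe set, beside 34.1% of all.

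**Figure D1:**
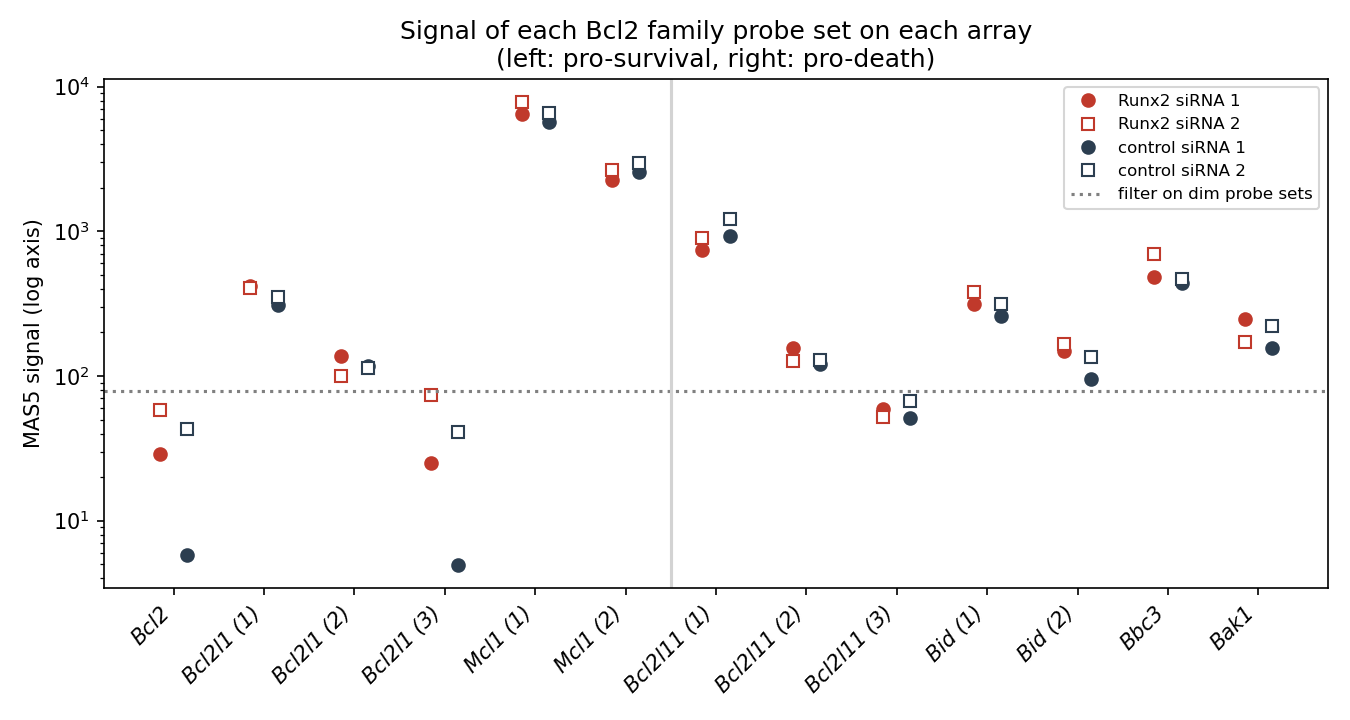
MAS5 signal on a log axis of each of the 13 probe sets on each of the 4 arrays, survival genes left of the grey line and death genes right, with numbers in brackets ranking the probe sets of a gene by brightness. Red marks Runx2 siRNA and dark blue control siRNA, circles the arrays numbered 1 and squares those numbered 2. The dotted line is the filter value of 78.6, which applies to the mean of the 4 arrays, and Bcl2 and the dimmest probe sets of Bcl2l1 and Bcl2l11 lie under it.

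Among the survival genes, Mcl1 encodes a short-lived protein that is lost quickly when its synthesis stops. Its brighter probe set (1372520_at) read 6444 and 7804 with Runx2 siRNA and 5726 and 6530 with control siRNA. The groups overlapped, since the first Runx2 siRNA array lay under the second control array. The difference was 0.21 ± 0.14 (SE, n = 2 arrays per group), with an adjusted p of 0.547 by limma. Leaving out the second Runx2 siRNA array gave 0.08, the first control array 0.12 and the first Runx2 siRNA array 0.35. The pair numbered 1 differed by 0.17 and the pair numbered 2 by 0.26. The second Mcl1 probe set (1370141_at) read 2260 and 2663 against 2555 and 2984, again with overlap. Its difference had the other sign, at -0.17 ± 0.14 (adjusted p = 0.604 by limma). This too moved with single arrays, to -0.05 and -0.06 without the first Runx2 siRNA or the second control array and to -0.29 and -0.28 without the others. Its pairs of equal number were close, at -0.18 for number 1 and -0.16 for number 2.

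Bcl2l1 encodes Bcl-xL and, by another splice site, the death-promoting Bcl-xS. Its brightest probe set (1370812_at) read 418 and 404 with Runx2 siRNA and 310 and 353 with control siRNA. Both Runx2 siRNA arrays lay above both control arrays. The mean was 411 ± 10.2 against 331 ± 30.2 (SD, n = 2 arrays each), a difference of 0.30 ± 0.14 (SE) or 1.23-fold, and it did not pass (adjusted p = 0.45 by limma, 95% interval -0.05 to 0.66). Without the second Runx2 siRNA array it was 0.33. The next probe set of the gene (1370485_a_at) read 138 and 100 against 117 and 114, so the Runx2 siRNA arrays lay on both sides of the controls. Its difference was 0.02 ± 0.23, and it turned to -0.15 after quantile and -0.17 after cyclic loess scaling.

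The dimmest Bcl2l1 probe set (1369180_at) read 24.9 and 74.4 with Runx2 siRNA and 4.95 and 41.0 with control siRNA. Bcl2, the founding member of the family, had its single probe set (1387611_at) at 28.9 and 58.6 against 5.82 and 42.7. In both, the groups overlapped, and the arrays numbered 2 were the higher ones in each group. With mean signals of 36.3 and 34.0 they lay below the filter and had no place in the test. Fitted without the filter, their differences were 0.82 ± 0.62 and 0.69 ± 0.55 (SE), with adjusted p of 0.632 and 0.647 by limma.

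Among the death genes, Bcl2l11 encodes Bim, a BH3-only protein that binds every survival member of the family. Its brightest probe set (1388742_at) read 746 and 902 with Runx2 siRNA and 927 and 1215 with control siRNA. It was the only probe set of the 13 with both Runx2 siRNA arrays under both controls, although 902 and 927 lie close together. The mean was 824 ± 111 against 1071 ± 203 (SD, n = 2 arrays each), a difference of -0.37 ± 0.18 (SE) or 0.776-fold. It did not pass (adjusted p = 0.458 by limma, 95% interval -0.81 to 0.08). It was -0.50 and -0.56 when the second Runx2 siRNA or the first control array was left out, and -0.23 and -0.17 when the first Runx2 siRNA or the second control array was. Both pairs of equal number lay below 0, at -0.31 for number 1 and -0.42 for number 2.

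The other Bcl2l11 probe sets did not share this direction beyond their spread. The second (1370787_at) read 155 and 127 against 122 and 130, a difference of 0.14 ± 0.20, which was -0.01 after quantile and -0.04 after cyclic loess scaling. The third (1387338_s_at), below the filter, read 59.5 and 51.7 against 51.5 and 67.4, a difference of -0.07 ± 0.28 without the filter. In both, the groups overlapped.

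Bid links death receptors to the mitochondrion once caspase 8 has cut it. Its brighter probe set (1377759_at) read 313 and 383 with Runx2 siRNA and 261 and 316 with control siRNA, and the groups overlapped narrowly. The difference was 0.26 ± 0.18 (SE), with 0.25 and 0.26 between the arrays numbered 1 and 2. It was 0.12 without either the second Runx2 siRNA or the first control array, and 0.40 and 0.39 with one of the others left out. The dimmer one (1369683_at) read 148 and 166 against 94.9 and 136, with both Runx2 siRNA arrays the higher ones. Its difference was 0.41 ± 0.23, or 1.33-fold, the largest of the 10 tested, with an adjusted p of 0.502 by limma. Leaving out the second Runx2 siRNA array gave 0.33, and leaving out the first or the second control array gave 0.18 or 0.64.

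Bbc3 encodes Puma, a BH3-only protein known as a p53 target. Its probe set (1382993_at) read 486 and 702 with Runx2 siRNA and 436 and 469 with control siRNA. The groups did not overlap, but the first Runx2 siRNA array lay close to the second control array. The mean was 594 ± 153 against 452 ± 23.8 (SD, n = 2 arrays each), a difference of 0.36 ± 0.20 (SE) with an adjusted p of 0.495 by limma. It rested on the Runx2 siRNA array with the bright spike-ins and was 0.10 without that array and 0.62 without the other. Bak1, the pore-forming effector, read 249 and 172 against 157 and 221 (1368066_at), so its arrays were interleaved. Its difference of 0.14 ± 0.26 held 0.62 for the pair numbered 1 and -0.33 for the pair numbered 2. It turned to -0.10 without the first Runx2 siRNA array and -0.09 without the first control array.

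**Figure D2:**
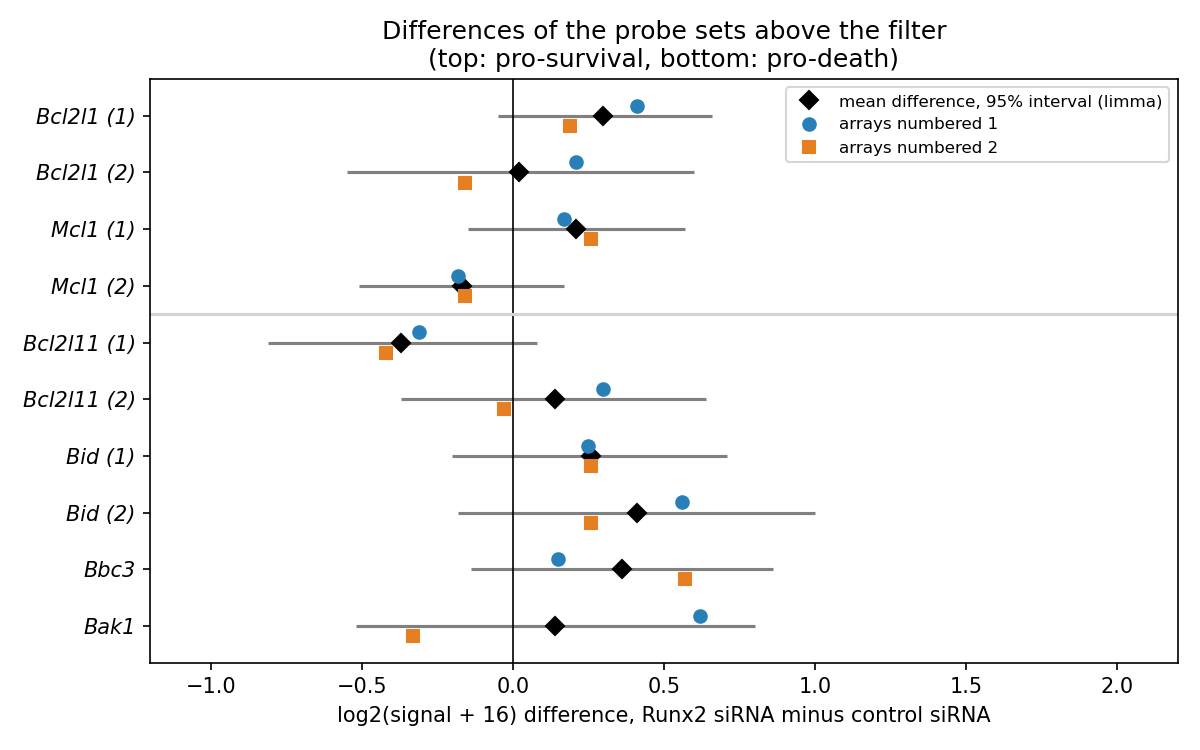
Difference in log2(signal + 16), Runx2 siRNA minus control siRNA, for the 10 probe sets above the filter, survival genes above the grey line. Diamonds with bars are the mean difference and its 95% interval by limma, circles and squares the differences between the arrays numbered 1 and 2. All 10 intervals cross 0, and the squares and circles of Bak1 lie on opposite sides of it.

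Survival genes were then set against death genes. On each array the mean log2(signal + 16) of the death genes (Bcl2l11, Bid, Bbc3, Bak1) was subtracted from that of the survival genes (Bcl2, Bcl2l1, Mcl1), with the brightest probe set of each gene, and the control mean was set to 0. The balance came to 0.22 and 0.39 with Runx2 siRNA and to -0.15 and 0.15 with control siRNA. The Runx2 siRNA arrays lay higher, by 0.30 on average, with a spread of 0.17 within groups (pooled SD, n = 2 arrays each). The survival mean differed by 0.40 and the death mean by 0.10. No p is given for this score, and 2 against 2 arrays could not go below an exact two-sided p of 0.333.

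The balance leaned on few genes. Without the dim Bcl2 it was 0.17 and 0.14 with Runx2 siRNA against 0.06 and -0.06, a difference of 0.16. Without Bcl2l11 the difference was 0.15. Leaving out any other single gene raised it, to between 0.32 (Bak1) and 0.40 (Mcl1). With all probe sets of each gene averaged, the balance was 0.00 and 0.36 against -0.21 and 0.21, so that the groups overlapped, and the difference was 0.18. It was 0.22 without the second Runx2 siRNA array. Both sides held differences above 0, in 5 of the 6 tested probe sets of death genes and 3 of the 4 of survival genes, with medians of 0.20 and 0.12.

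Probe sets of 1 gene can read different transcripts. Mcl1 and Bcl2l11 each had probe sets on opposite sides of 0, though for Bcl2l11 this did not hold after quantile or cyclic loess scaling. The log2 ratio of the brightest to the second probe set was therefore compared within each array, a comparison chosen after these values had been seen, over all 2976 genes with 2 probe sets above the filter. For Mcl1 the ratio, with the control mean at 0, was 0.36 and 0.40 with Runx2 siRNA and 0.02 and -0.02 with control siRNA. The groups did not overlap, as in 41.3% of all genes. Mcl1 and Bcl2l11 were singled out for probe sets on opposite sides of 0. A difference in their ratios was thus built in by that choice, and its unadjusted p is no separate support. The ratio differed by 0.38 ± 0.10 (SE, n = 2 arrays per group; 95% interval 0.15 to 0.61), with an unadjusted p of 0.006 and an adjusted p of 0.412 by limma. It did not pass over all genes. Of all 2976 genes 0% passed, 9.04% had an unadjusted p under 0.05, and 13.4% had a ratio that differed by as much as that of Mcl1.

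For Bcl2l11 the ratio was -0.76 and -0.24 against -0.15 and 0.15, a difference of -0.50 ± 0.23 (SE; adjusted p = 0.571 by limma). The groups did not overlap, as in 41.3% of all genes, and the Runx2 siRNA arrays were far from each other. For Bcl2l1 and Bid the ratios overlapped between groups and differed by 0.28 ± 0.23 and -0.15 ± 0.22. Which transcripts the probe sets read was not analysed here.

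**Figure D3:**
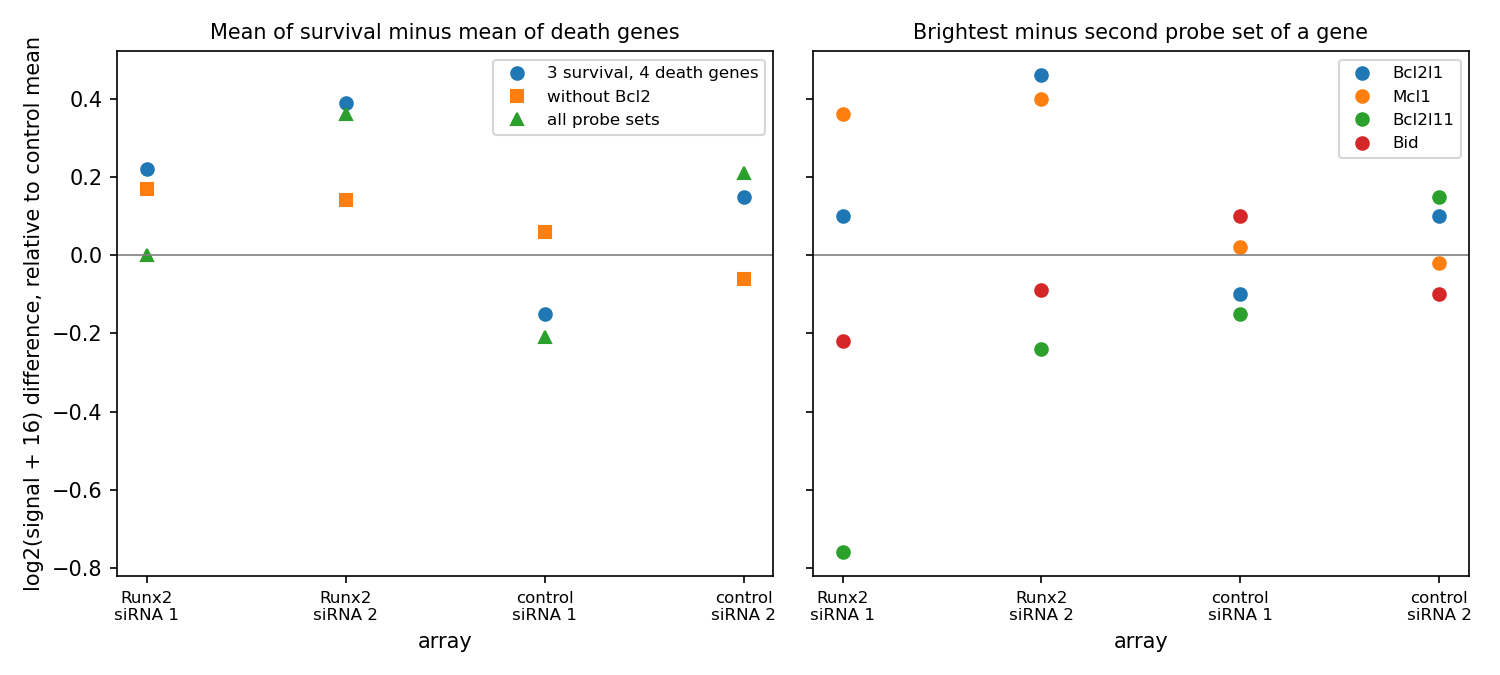
Left, the balance of survival over death genes on each array, as a difference in log2(signal + 16) relative to the control mean, with all 7 measured genes (circles), without Bcl2 (squares) and with all probe sets averaged (triangles). Right, the log2 ratio of the brightest to the second probe set of Mcl1, Bcl2l1, Bcl2l11 and Bid on each array, relative to the control mean. The Mcl1 ratio lies at 0.36 and 0.40 on the Runx2 siRNA arrays and within 0.02 of 0 on the controls.

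The rest of the pathway was read from lists of genes, with the brightest probe set of each, and 0 genes passed in any list (limma, adjusted p under 0.05). Among other Bcl2 family genes, 13 of 15 had a probe set with 1 symbol and 9 were above the filter. Of these, 2 were higher and 7 lower with Runx2 siRNA, with a median of -0.09. Bmf, a BH3-only gene, was the one with an unadjusted p under 0.05, at 53.7 and 69.6 against 95.2 and 118, a difference of -0.66 ± 0.25 (SE; adjusted p = 0.411). Both of its Runx2 siRNA arrays lay under the value of 78.6 used for dim probe sets.

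Of the apoptosome, caspases and released mitochondrial factors, 13 of 16 had a probe set with 1 symbol, all above the filter. Of these, 8 were higher and 5 lower, with a median of 0.08. Casp6, an executioner caspase, read 1246 and 1473 with Runx2 siRNA and 894 and 948 with control siRNA. Its difference was 0.55 ± 0.12 (SE), with an unadjusted p of 0.0059 and an adjusted p of 0.346 by limma. Aifm1, a mitochondrial flavoprotein that moves to the nucleus in dying cells, differed by -0.39 ± 0.14. Both were named because their groups did not overlap at an unadjusted p under 0.05 by limma. In this list 3 genes had no overlap with Runx2 siRNA higher and 3 with it lower, beside 47.4% of all probe sets in either direction.

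Caspase inhibitors had a probe set for 5 of 6 genes and 4 above the filter, 2 on each side of 0 with a median of -0.06. The death receptor arm had a probe set for 8 of 9 and 7 above the filter, 3 higher and 4 lower with a median of -0.10. Tradd, the adaptor of the TNF receptor, read 489 and 484 against 604 and 596, a difference of -0.30 ± 0.11 (SE; adjusted p = 0.416 by limma). Of the regulators of Bcl2 family transcripts and proteins, 14 of 16 had a probe set and 12 were above the filter. Of these, 7 were higher and 5 lower with a median of 0.10. In 5 the groups did not overlap with Runx2 siRNA higher and in 4 with it lower, beside 47.4% of all probe sets. For other Bcl2 family genes these counts were 1 and 2, for caspase inhibitors 1 and 0, and for death receptor genes 0 and 2. Stat3, a transcription factor known to drive Mcl1 and Bcl2l1, read 850 and 830 against 1173 and 1404. Its difference was -0.60 ± 0.13 (SE; unadjusted p = 0.00423, adjusted p = 0.346 by limma), and that of its second probe set was -0.62 ± 0.25. Both Stat3 probe sets had the Runx2 siRNA arrays under the controls.

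With 4 arrays a likeness of pattern is only a description. The brighter Mcl1 probe set was matched over the 4 arrays at a Pearson r of 0.95 or more by 1043 of 14101 named probe sets. The nearest were Tbc1d13, Lgi3 and Dlgap5, with r of 0.9998 to 1.0000.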

How the data were processed

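Biotin-labelled RNA of 4 granulosa cell cultures was hybridised to 1-colour arrays. The deposited values are array intensity, MAS5 signal on a linear scale per the submitters' processing notes, version not stated there. The values show a trimmed mean of about 500 on each array, a common scale that can hide a change in RNA per cell. MAS5 takes mismatch probes into account, and its dim values vary widely. The table held 31099 probe sets, 57 of them array controls, which were left out. Of the other 31042, 20826 have 1 symbol, 436 several and 9780 none, and only those with 1 were named. Signals were tested as log2(signal + 16), which understates changes of dim probe sets. The lowest 40% by mean signal, below 78.6, were left out. The authors' scaling was kept.

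limma 3.58.1 in R 4.3.3 (lmFit, eBayes with intensity trend) compared Runx2 siRNA with control siRNA over all 18625 probe sets, two-sided, with 2 residual and 3.32 prior degrees of freedom, no term for replicate number, and Benjamini-Hochberg adjustment over all of them at 0.05. On 5 simulated tables of this comparison with 18625 probe sets it called 70.4% of 2-fold, 98.2% of 4-fold and 0.117% of unchanged probe sets. These tables hold no shared difference between arrays of 1 number. In the measured data, 1.26% of probe sets differed by more than 1 (log2, either direction). Still, 0 passed, and the lowest adjusted p was 0.248 by limma. The simulated shares therefore do not show that a 2-fold change would usually have been found here. Alternatives used constants of 1 and 64, scaling by quantile or cyclic loess, no filter or 60% left out, no intensity trend, replicate number as a term, and each array left out. The ratio of probe sets and the balance without single genes were added after seeing the data.

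The members and lists were chosen with earlier results of these data known. Named were all probe sets of the members, and from each list up to 4 genes without overlap at an unadjusted p under 0.05, plus the 3 probe sets most like the brightest member.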

Additional observations from a re-analysis of the deposited data

Results flagged for a closer look

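The spike-in transcripts, which the comparison does not use, were brighter on the second Runx2 siRNA array than on any control array, at 1.72 times the control mean over 18 spike-in probe sets. The first Runx2 siRNA array was at 0.952. The difference of Bbc3 was 0.36 with that array and 0.10 without it.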

How the results depend on the processing

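Under the alternatives run, 0 of the family's probe sets passed, as in the main test. With replicate number as a term (replicate block) 1512 of all 18625 probe sets passed and 0 of the family's 10, the lowest adjusted p being 0.0524 for the brightest Bcl2l11 probe set. Across probe sets, arrays of equal number deviated together from their group means (r = 0.548), but no label ties a number to a shared preparation. The balance of 0.30 was 0.50 with a constant of 1 and 0.18 with a constant of 64. It was 0.25 after quantile or cyclic loess scaling, and 0.16 to 0.45 with single arrays left out. The sign turned for the second Bcl2l1 probe set (-0.15 quantile, -0.17 cyclic loess, and from -0.18 to 0.22 with single arrays left out), the second Bcl2l11 probe set (-0.01 and -0.04) and Bak1 (-0.10 and -0.09 without the first Runx2 siRNA or control array, up to 0.39 without others), and the cause was not tested. The brightest Bcl2l11 probe set stayed below 0, from -0.56 to -0.17 with single arrays left out, and that of Bcl2l1 above 0, from 0.21 to 0.39. The Mcl1 ratio stayed between 0.31 and 0.40. Signals near background limit Bcl2 and the dimmest Bcl2l1 probe set.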
